A study of Arabidopsis thaliana with 9 samples.

Results

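Seedlings of Arabidopsis thaliana that carry mutations in 3 related B-box zinc finger genes, BBX20, BBX21 and BBX22 (genotype bbx202122), were compared with the wild type (WT, ecotype Col-0) by RNA sequencing of whole plants. The comparison takes all genes in the 3 bbx202122 and the 3 WT libraries, 6 of the 9 libraries of the series. The other 3 libraries come from a hy5 mutant; they share in the estimate of the spread, and their values are set beside those of bbx202122 where they help to read them. All seedlings were 4 days old. After 2 days of stratification at 4 °C, a pulse of white light and 22 h in darkness, they had spent 3 days in red light (80 µmol per square metre and second, 22 °C), on medium to which no sucrose was added. The labels used here name neither the mutant alleles nor the ecotype of the mutants, so the mutations and any difference in genetic background cannot be told apart. Nothing in the labels says that replicates were separate cultures, so every p-value covers the spread among these libraries, and that spread may be technical.

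BBX20, BBX21 and BBX22 are transcription regulators that promote the development of seedlings in light: short hypocotyls, open green cotyledons and pigment synthesis. They act with HY5, a bZIP protein that binds DNA at ACGT-containing elements such as the G-box (CACGTG) and that is thought to depend on partners to activate its targets. The flavonoid genes are the best known of these targets; the results below describe what else differed, with 3 lists of genes of flavonoid synthesis, the circadian clock and the cell wall set aside. The cell wall list does not hold every gene of that role, and wall enzymes of root hairs such as XTH13, XTH26 and EXPA7 are described.

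The library totals ran from 21577036 to 22778710 expected counts, and levels are given as CPM, counts scaled to a common library total. In a library 3 counts corresponded to 0.132 to 0.139 CPM, the floor used here for a level near 0. Replicates of a genotype differed by more than sampling noise, so no library was counted as a copy of another. Transcripts encoded in the chloroplast took 0.210 to 0.238% of the counts in WT, 0.399 to 0.493% in bbx202122 and 0.191 to 0.326% in hy5. The mRNA was selected by its poly(A) tail, which chloroplast transcripts mostly lack, and whether the selection differed between libraries was not tested. Of the flower markers AG and AP3, which a seedling should lack, neither passed the filter on low counts. Leaf markers, among them RBCS1A and RCA, were abundant, as the label of whole seedlings calls for.

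In bbx202122, 3504 of 20751 tested genes differed from WT at an adjusted p under 0.05 (16.9%; edgeR's quasi-likelihood test with Benjamini-Hochberg adjustment), 1788 of them higher (8.62%) and 1716 lower (8.27%). Most differences were small. The median size over the called genes was 1.31-fold, and 69.1% of them changed by less than 1.5-fold. At least 2-fold changes were found in 382 genes (1.84%), of which 179 were higher (0.863%) and 203 lower (0.978%), and 40 genes changed at least 4-fold. Libraries of the genotypes did not overlap, in either direction, for 32.5% of the tested genes, which is the background for each statement on overlap below. For counts of called list members below, the background is 16.9%, or 8.62% higher and 8.27% lower. For hy5 against WT it is 39.5%, and for bbx202122 against hy5 it is 23.0%. Of the 382, 326 lie in the nuclear genome, 123 of them higher and 203 lower; the 55 in the chloroplast and the 1 in the mitochondrion were all higher. Without WT replicate 2 the number of called genes was 2236, and the number higher was 1084. Genes close to the mutated loci were called at similar rates: 20.4% of the 334 tested within 1 Mb of BBX20, 14.2% of 485 around BBX21 and 15% of 428 around BBX22.

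**Figure D1:**
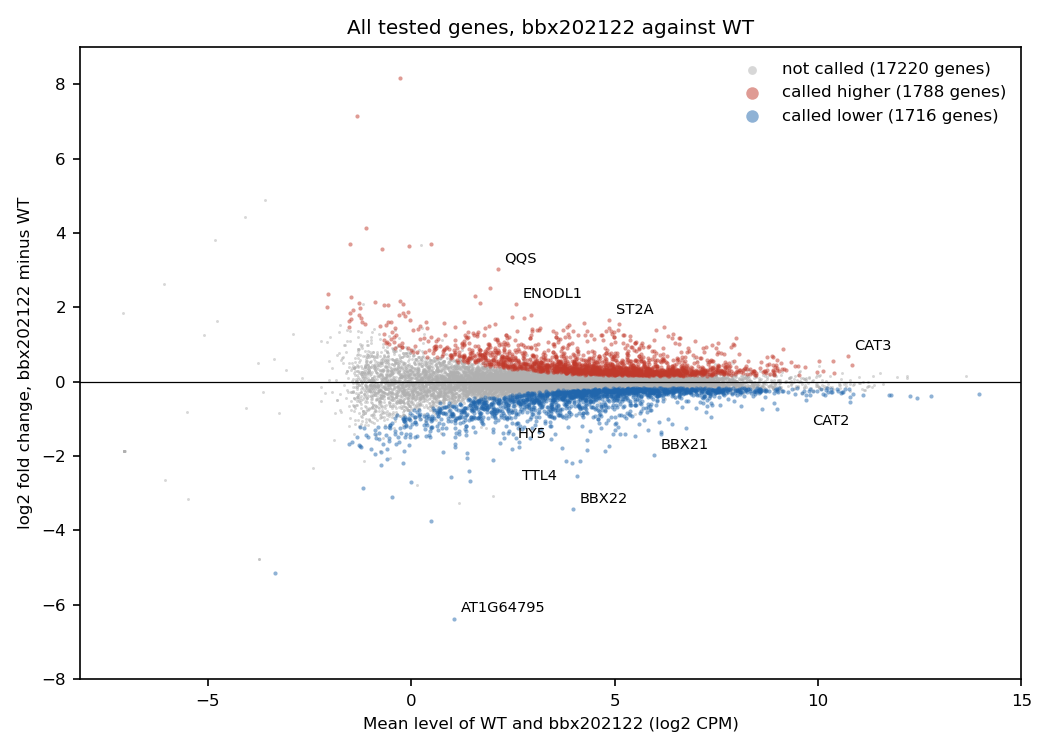
Fitted log2 fold change of bbx202122 against WT (y axis) over the mean level of both genotypes (x axis, log2 CPM) for the tested genes; genes at 0 in both genotypes are not drawn. Red and blue points are the 1788 genes called higher and the 1716 called lower; most of them lie near the line of no change, and BBX21, BBX22, HY5, TTL4 and QQS are among the few that stand far from it.

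The mutated genes were read first. BBX22 (AT1G78600, LZF1 in the annotation; chr1:29566863-29568931 in TAIR10.1) was at 29.0, 29.3 and 28.5 CPM in WT and at 2.96, 2.70 and 2.42 CPM in bbx202122. BBX21 (AT1G75540; chr1:28365824-28367738) was at 103, 90.8 and 108 CPM in WT and at 27, 24.9 and 25.1 CPM in bbx202122. Both fell well outside the WT range, by 3.42 ± 0.09 (adjusted p = 3.3e-12) and 1.97 ± 0.07 (adjusted p = 2.5e-10) on the log2 scale. BBX20 (AT4G39070, BZS1 in the annotation; chr4:18204631-18206684) was at 4.99, 4.31 and 4.40 CPM in WT and at 4.07, 4.41 and 3.83 CPM in bbx202122. Its libraries overlapped, and the log2 fold change of -0.16 ± 0.13 did not pass the test (adjusted p = 0.48). A transcript count does not say whether the transcript can still make a working protein, so this level checks no allele of BBX20.

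HY5 itself (AT5G11260; chr5:3593335-3595073), which is not mutated by the name of the genotype, was at 15.5, 16.4 and 18.4 CPM in WT and at 5.92, 6.84 and 6.25 CPM in bbx202122. The groups did not overlap, and HY5 fell by 1.40 ± 0.12 on the log2 scale (adjusted p = 3.0e-06). In the hy5 libraries its transcript was at 9.07, 9.1 and 6.505 CPM. The libraries of the mutants overlapped. By the direct test bbx202122 was lower than hy5 only at the edge of the threshold (log2 difference -0.38, adjusted p = 0.049). BBX21, in turn, was higher in hy5 than in WT (143, 134 and 135 CPM), while BBX20 was lower there (1.91, 2.44 and 2.07 CPM).

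To let the DNA be seen beside the values, the 250 bases before the annotated start are given for 6 genes whose changes are described below. ABCI21 is among the genes lower in both mutants, and TTL4 was lower in bbx202122 than in hy5. QQS moved in opposite directions in the mutants, and EXPA7, PRP3 and LRX1 are among the genes of root hairs. Sequences were read from the TAIR10.1 genome with the RefSeq annotation, on the strand of the gene. Capitals mark matches, on either strand, to the G-box CACGTG, to the related hexamer CACGTC, whose reverse complement reads GACGTG, or to the root hair element, a 16 to 17 base pattern described for genes of root hair cells.
ABCI21, chr5:17755769-17756018, minus strand: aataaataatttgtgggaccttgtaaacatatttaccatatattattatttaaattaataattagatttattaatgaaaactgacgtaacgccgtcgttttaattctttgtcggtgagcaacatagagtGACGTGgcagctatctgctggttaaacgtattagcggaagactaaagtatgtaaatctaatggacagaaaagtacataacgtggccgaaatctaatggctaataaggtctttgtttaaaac
TTL4, chr3:21679777-21680026, plus strand: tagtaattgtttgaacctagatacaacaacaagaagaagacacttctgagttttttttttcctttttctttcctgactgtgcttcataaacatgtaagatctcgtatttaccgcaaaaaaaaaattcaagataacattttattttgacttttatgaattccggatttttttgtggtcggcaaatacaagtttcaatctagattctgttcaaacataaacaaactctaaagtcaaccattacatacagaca
QQS, chr3:12348797-12349046, plus strand: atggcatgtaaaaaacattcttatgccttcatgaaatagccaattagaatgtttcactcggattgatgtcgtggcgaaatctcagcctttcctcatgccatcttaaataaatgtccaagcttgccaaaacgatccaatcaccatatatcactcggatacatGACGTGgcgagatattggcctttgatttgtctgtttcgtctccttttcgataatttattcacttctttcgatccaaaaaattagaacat
EXPA7, chr1:4276255-4276504, plus strand: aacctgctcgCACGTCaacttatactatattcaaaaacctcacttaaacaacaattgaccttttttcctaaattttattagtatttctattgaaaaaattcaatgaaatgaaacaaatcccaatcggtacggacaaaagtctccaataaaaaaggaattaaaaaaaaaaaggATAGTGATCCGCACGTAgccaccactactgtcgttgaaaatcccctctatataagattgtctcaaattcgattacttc
PRP3, chr3:23182472-23182721, plus strand: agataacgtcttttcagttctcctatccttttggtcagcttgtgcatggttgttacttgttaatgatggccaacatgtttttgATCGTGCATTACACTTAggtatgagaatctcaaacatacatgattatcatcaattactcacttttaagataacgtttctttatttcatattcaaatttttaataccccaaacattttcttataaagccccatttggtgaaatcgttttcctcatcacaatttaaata
LRX1, chr1:4069742-4069991, plus strand: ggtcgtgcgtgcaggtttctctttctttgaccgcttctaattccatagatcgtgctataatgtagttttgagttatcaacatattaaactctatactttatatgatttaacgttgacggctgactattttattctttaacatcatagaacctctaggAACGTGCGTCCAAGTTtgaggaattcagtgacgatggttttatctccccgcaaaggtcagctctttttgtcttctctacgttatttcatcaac

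In these windows GACGTG began 121 bases before the start of ABCI21 and 89 bases before that of QQS, CACGTC 240 bases before that of EXPA7, and the root hair element 78 bases before EXPA7 and, on the reverse strand, 167 bases before PRP3 and 93 bases before LRX1; the TTL4 window held no match. The printed windows do not stand for their groups. Those of ABCI20 and GRP9, also low in both mutants, held no match. The same held for the root hair genes RHD6, RSL1, RSL2 and RSL4. Of the 29 root hair genes described below, 6 had the root hair element. Over all 20621 tested genes with such a window, either strand counted, CACGTG was in 7.44%, CACGTC in 6.34%, GATAAG in 12.4% and the root hair element in 0.79%. Among the genes called lower the shares were 9.27% for CACGTG, 9.03% for CACGTC, 10.3% for GATAAG and 2.21% for the root hair element. Among those called higher they were 6.1%, 7.03%, 16.9% and 0.41%. Among the genes lower by at least 2-fold, 24 of 203 windows held CACGTC (11.8%) and 9 the root hair element (4.43%). CACGTC and the root hair element can overlap in their letters, and a match is a description of the letters, not a site of binding.

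Large decreases are given for called nuclear genes at a mean of 5 CPM or more in WT whose libraries did not overlap, with the mutated genes, HY5 and the lists set aside left out; decreases larger than these occurred among the genes left out, as in BBX22 above. In this set the decreases were led by GRP9, a glycine-rich protein, and TTL4, a tetratricopeptide-repeat thioredoxin-like protein of a family that acts in stress and brassinosteroid responses. TTL4 (AT3G58620; chr3:21680027-21683280) was at 29.6, 28.7 and 28.8 CPM in WT and at 5.79, 6.62 and 7.39 CPM in bbx202122. The groups lay far apart, and TTL4 fell by 2.13 ± 0.09 on the log2 scale (adjusted p = 9.0e-10). In hy5 it was at 26.3, 27.5 and 29.3 CPM, with a log2 fold change against WT of -0.07 (adjusted p = 0.50), and the direct difference between bbx202122 and hy5 was -2.07 (adjusted p = 2.2e-10). GRP9 (AT2G05440) fell from 20.3, 28.0 and 27.8 CPM to 4.69, 6.39 and 5.69 CPM, by 2.18 ± 0.14 on the log2 scale, and was lower still in hy5, at 2.58, 2.72 and 2.03 CPM.

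ABCI20 and ABCI21, a pair of soluble ABC-type ATPases, fell together. ABCI21 (AT5G44110; chr5:17753959-17755768) was at 20.0, 21.3 and 19.1 CPM in WT and at 5.66, 5.85 and 5.82 CPM in bbx202122, and fell by 1.80 ± 0.09 on the log2 scale (adjusted p = 1.8e-08). ABCI20 (AT5G02270; chr5:467038-469272) went from 44.8, 47.1 and 42.6 CPM to 13.8, 12.6 and 14.3 CPM, by -1.73 ± 0.09 (adjusted p = 3.2e-08). Neither gene's groups overlapped. Both were also low in hy5, ABCI21 at 5.16, 6.43 and 6.03 CPM and ABCI20 at 12.2, 11.2 and 8.67 CPM; against hy5 the difference was -0.02 for ABCI21 (adjusted p = 0.90) and 0.34 for ABCI20 (adjusted p = 0.029).

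The other 8 of the 12 largest decreases in this set were AT3G19430 and AT5G54370, both annotated as related to late embryogenesis abundant proteins; PRP1, a proline-rich cell wall protein; XTH13 and XTH26, enzymes that cut and rejoin xyloglucan; sks15, of the SKU5 family; the cysteine proteinase AT2G34080; and the peroxidase AT3G49960. Their log2 fold changes ran from -2.102 ± 0.22 for AT3G19430 to -1.58 ± 0.09 for AT3G49960, and in each the WT and bbx202122 libraries did not overlap. PRP1, XTH13 and XTH26 are also among the root hair genes taken up below. Among the more abundant genes of the set, those at 100 CPM or more in WT, the largest decreases were in the extensins EXT6 (log2 fold change -1.41 ± 0.20) and EXT10 (-1.15 ± 0.16), the proline-rich protein PRP3 (-1.001 ± 0.13) and the hydroxyproline-rich glycoprotein HRGP1 (-0.96 ± 0.16), all structural proteins of the wall. These proteins are built from repeats: 4.88% of the 50-base words of EXT6 and 2.78% of those of HRGP1 also occur in another gene, so their counts are less certain. The methyltransferase AT5G37990 was at 199, 191 and 195 CPM in WT and at 70.9, 94.0 and 164 CPM in bbx202122 (adjusted p = 0.011), and it was not called with DESeq2 or without bbx202122 replicate 2.

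Increases were taken by the same rule, at a mean of 5 CPM or more in the mutant, and the largest among them was that of QQS; larger fitted increases occurred in genes under that level, such as WSD1 and AT4G09250 below. QQS (AT3G30720; chr3:12349047-12349933), a gene without known relatives outside Arabidopsis that affects how leaf carbon and nitrogen are divided between starch and protein, was at 0.668, 1.15 and 1.03 CPM in WT and at 8.93, 8.06 and 6.46 CPM in bbx202122. It rose by 3.04 ± 0.21 on the log2 scale (adjusted p = 3.6e-07), with no overlap. In hy5 it was at 0.0478, 0 and 0.0943 CPM, under the level of 3 counts in every library. The fitted direct difference between the mutants was 7.21 (adjusted p = 2.2e-09). With so few counts in hy5 the size of that difference is uncertain. The sequence before QQS is among those printed above.

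The other large increases included that of ST2A, which had the same direction in hy5. ST2A (AT5G07010), a sulfotransferase that modifies hydroxylated jasmonate, rose from 13.99, 12.2 and 15.8 CPM to 38.6, 48.8 and 45.9 CPM, by 1.66 ± 0.10 on the log2 scale, and was at 74.9, 74.98 and 67 CPM in hy5. ENODL1, an early nodulin-like protein of the cell surface, rose by 2.09 ± 0.17; AT3G28510, a P-loop ATPase, by 2.52 ± 0.20; and the terpenoid synthase TPS13 by 2.103 ± 0.27. AT4G37220 (cold acclimation WCOR413 family), the glycosyltransferase AT5G37950, the carboxypeptidase scpl2, AT5G43520, AT1G53690, AT4G35720 and the methyltransferase PXMT1 rose by 1.45 ± 0.16 to 1.79 ± 0.16. Counts of scpl2 are uncertain, since 36.8% of its 50-base words occur in AT5G36180 or other genes; the share was 9.69% for AT5G37950 and 6.07% for TPS13. Among genes of this set at 100 CPM or more in the mutant, the largest increases were in ATPMEPCRD (a pectin methylesterase with its inhibitor domain; 1.19 ± 0.11), GLYI4 (glyoxalase family; 1.17 ± 0.09), EBP (the ethylene response factor RAP2.3; 1.05 ± 0.09), AT2G33830 (dormancy and auxin associated; 1.04 ± 0.12) and PRP2 (proline-rich protein; 0.9997 ± 0.12).

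**Figure D2:**
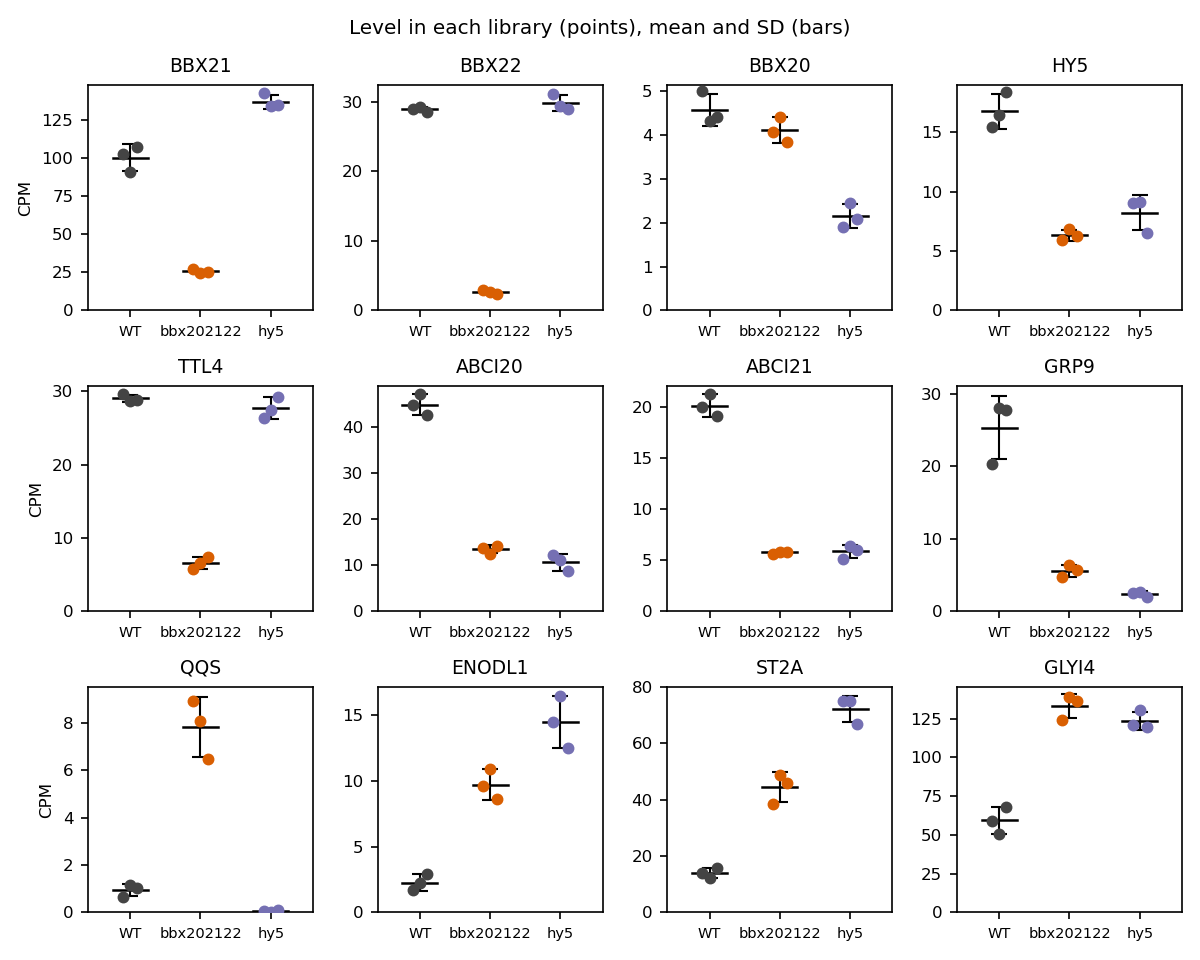
Levels in CPM (y axes, from 0) of the mutated genes, HY5 and 8 of the genes with large changes, for each library of WT, bbx202122 and hy5; points are libraries, bars the mean and SD of 3. TTL4 is low in bbx202122 and near its WT level in hy5, ABCI20, ABCI21 and GRP9 are low in both mutants, and QQS is high in bbx202122 and near 0 in hy5.

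Genes of carbon fixation were lower. Of 19 Calvin cycle genes 12 fell and 0 rose, and of 15 photorespiration genes 12 fell and 0 rose, with median log2 fold changes of -0.26 and -0.23 against 0.0072 over all tested genes. That is 63.2% and 80% of the genes called, where 16.9% of all tested genes were called and 8.27% were called lower. These background shares cover genes of all levels, and shares among genes of like abundance were not compared. The falls were small in size and large in amount of transcript, because these genes are among the most abundant in the seedling. In bulk samples fewer cells of a type and less RNA per cell cannot be told apart, which holds for this and all following groups. Rubisco activase (RCA), which keeps Rubisco free of inhibitors, was at 6178, 6402 and 6671 CPM in WT and at 4394, 5066 and 4716 CPM in bbx202122, and fell by 0.44 ± 0.07 on the log2 scale (adjusted p = 0.00050). RBCS3B, a Rubisco small subunit, was at 7729, 8692 and 7684 CPM in WT and at 5705, 6465 and 6120 CPM in the mutant (-0.40 ± 0.07, adjusted p = 0.0014). Neither gene's groups overlapped. The small subunits RBCS1B, RBCS2B and RBCS3B share 13.9 to 21.4% of their 50-base words with other genes, so reads may have been split among them. RBCS1A, at 15860, 19510 and 17550 CPM in WT and 15320, 14510 and 12160 CPM in bbx202122, also fell (adjusted p = 0.022). It was lower but not called without WT replicate 2, WT replicate 3 or bbx202122 replicate 3 or with the WT and bbx202122 libraries alone, at log2 fold changes of -0.25 to -0.35.

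FBA2, an aldolase of the same cycle, was at 2356, 2582 and 2499 CPM in WT and at 1789, 2106 and 1853 CPM in bbx202122 (-0.37 ± 0.07, adjusted p = 0.0019). PGK1, GAPB, GAPA-2, FBA1, SBPASE and PRK fell as well, by 0.20 to 0.35. The regulators CP12-1, CP12-2 and CP12-3, which bind GAPDH and PRK in the dark, were not called, with libraries that overlapped between the genotypes.

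Photorespiration recovers the carbon and nitrogen lost when Rubisco reacts with oxygen. CAT2 (AT4G35090), the peroxisomal catalase that removes the hydrogen peroxide made on the way, was at 956, 949 and 1023 CPM in WT and at 632, 789 and 647 CPM in bbx202122, and fell by 0.50 ± 0.08 on the log2 scale (adjusted p = 0.00040). GLDP1, a subunit of glycine decarboxylase, was at 2007, 2206 and 2021 CPM in WT and at 1551, 1782 and 1656 CPM in the mutant (-0.32 ± 0.07, adjusted p = 0.0039). GLN2, the chloroplast glutamine synthetase that takes up the released ammonium, was at 1715, 1622 and 1768 CPM in WT and at 1330, 1472 and 1367 CPM in the mutant (-0.29 ± 0.06, adjusted p = 0.0042). In all of these every mutant library was below every WT library. PLGG1, the glycolate and glycerate transporter of the chloroplast, GLO1, GLO2, PGLP1, GGT1, SHM1, GLDP2, GLDT and HPR1 also fell, by 0.19 to 0.31, and AGT, GLYK and GLU1 were not called.

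In hy5 these genes were closer to WT. Set against the same WT libraries, hy5 had 2 Calvin cycle genes called higher and 6 lower, and 3 photorespiration genes higher and 0 lower, where 39.5% of all tested genes were called. The test of bbx202122 against hy5, which called 23.0% of all genes, put 10 Calvin cycle genes and 9 photorespiration genes lower in bbx202122 and 0 higher. CAT2 was at 907, 936 and 939 CPM in hy5 and GLDP1 at 2263, 2362 and 2343 CPM, so that bbx202122 was below hy5 by 0.43 (adjusted p = 0.0010) and 0.48 (adjusted p = 0.00013) on the log2 scale. The leaf markers moved with this group: of RBCS1A, LHCB1.1, CAB3 and RCA, 3 fell and CAB3 did not pass the test. LHCB1.1 (CAB2 in the annotation, a light-harvesting protein) fell by 0.54 ± 0.08 on the log2 scale; CAB3 is a near-identical neighbour, so the split of reads between them is uncertain. How far the number of leaf cells enters these values was not tested.

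Genes of starch went both ways. Of 25 tested, 9 rose and 3 fell (48% called). The 9 that rose act in degradation: the phosphorylases PHS1 and PHS2, the dikinases SEX1 and PWD and the phosphatase SEX4 that open the granule, the debranching enzyme ISA3, the amylase AMY3 and the disproportionating enzymes DPE1 and DPE2. PHS2 was at 127, 125 and 116 CPM in WT and at 170, 190 and 191 CPM in bbx202122 (0.58 ± 0.06, adjusted p = 1.8e-05), and SEX1 at 144, 139 and 133 CPM in WT and 182, 214 and 219 CPM in the mutant (0.56 ± 0.07, adjusted p = 0.00010). The libraries of the genotypes did not overlap in either. Of the 3 that fell, GBSS1, the granule-bound synthase that makes amylose, was at 62.2, 69.3 and 70.2 CPM in WT and at 38.8, 39.8 and 45.1 CPM in the mutant (-0.71 ± 0.08, adjusted p = 3.3e-05). The others were BAM1 and BAM9 of the beta-amylase family, which belongs to degradation as well (-0.31 ± 0.07 and -0.34 ± 0.07). The synthesis genes ADG1, APL1, APL2, APL3, PGM1, SS1, SS2, SS4, SBE2.1 and SBE2.2 were not called. Of the genes placed with degradation, BAM3, BAM4 and MEX1 were not called either. In hy5, against the same WT libraries, 22 of the 25 rose and 1 fell; GBSS1 was at 104, 90.0 and 85.4 CPM there, above WT, and the direct difference of bbx202122 from hy5 was -1.17 (adjusted p = 8.8e-08).

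Breakdown of branched-chain amino acids and lysine feeds respiration when sugar is short. Transcripts of its genes were higher: 9 of 11 rose and 0 fell (81.8% called), with a median log2 fold change of 0.43. The breakdown itself was not measured. D2HGDH, a mitochondrial D-2-hydroxyglutarate dehydrogenase, was at 8.64, 8.48 and 7.99 CPM in WT and at 18.4, 19.9 and 19.0 CPM in bbx202122, and rose by 1.19 ± 0.08 on the log2 scale (adjusted p = 1.6e-07). BCAT-2, the aminotransferase of the opening step, was at 32.3, 22.1 and 34.9 CPM in WT and at 54.9, 56.7 and 58.4 CPM in the mutant (0.93 ± 0.11, adjusted p = 6.4e-05). The groups did not overlap for either. BCE2, MCCA, IVD, LKR, DIN4, MCCB and ETFQO rose by 0.29 to 0.74, while CHY1 was not called. In hy5 10 of the 11 rose. There bbx202122 was below hy5 for 7 genes by the direct test, but not for D2HGDH (18.8, 18.0 and 17.9 CPM in hy5; log2 difference 0.07, adjusted p = 0.51).

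**Figure D3:**
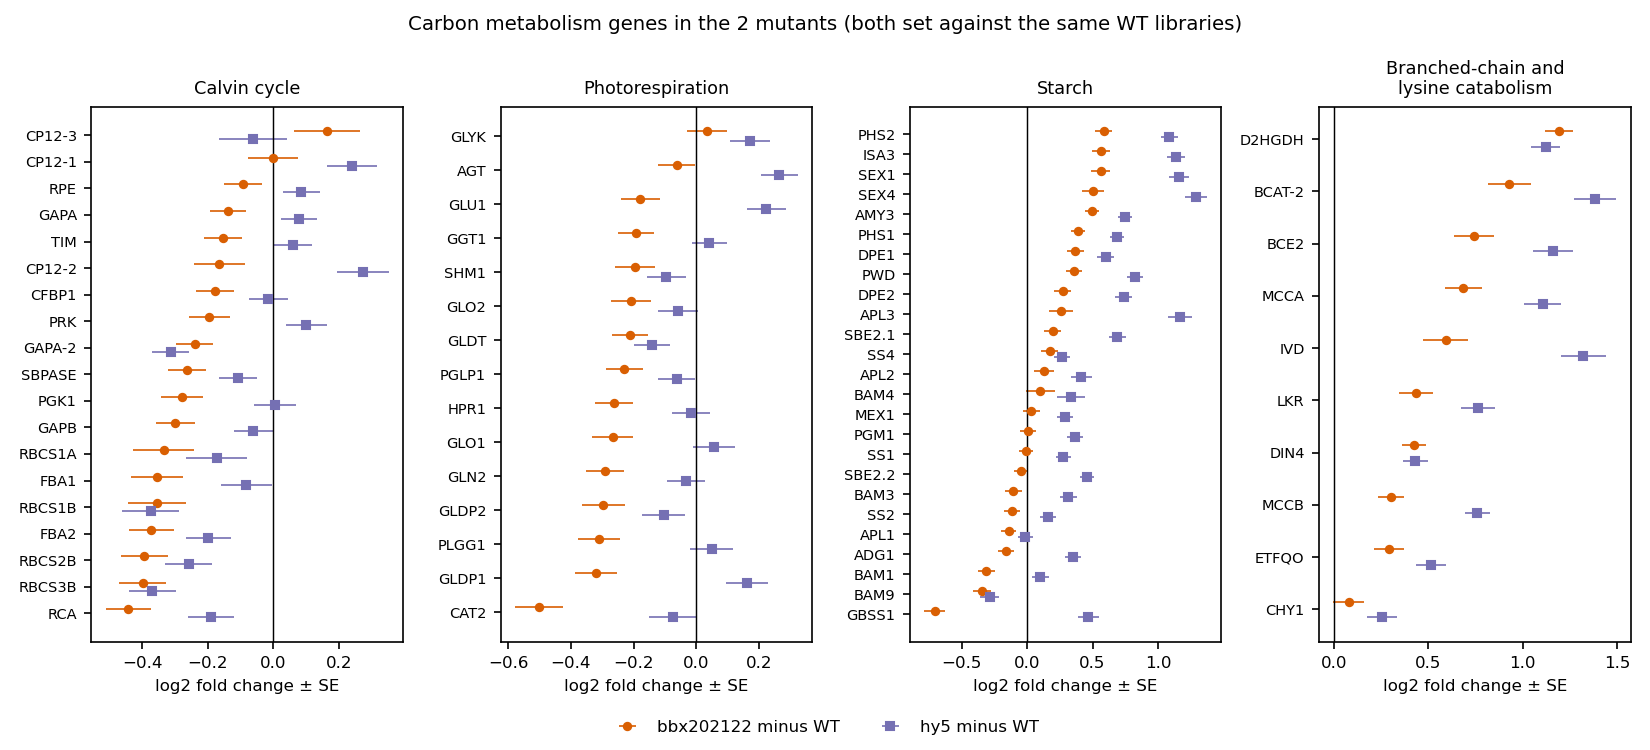
Log2 fold change with its SE (x axes) of genes of the Calvin cycle, photorespiration, starch and branched-chain and lysine catabolism lists, for bbx202122 against WT (circles) and hy5 against WT (squares), both set against the same 3 WT libraries. Most Calvin cycle and photorespiration genes lie left of 0 in bbx202122, many of them nearer to or right of 0 in hy5; the amino acid breakdown genes drawn lie right of 0, as do PHS2, ISA3, SEX1 and SEX4 of starch breakdown, while BAM1, BAM3 and BAM9 lie left of it in bbx202122.

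Other genes of carbon and nitrogen use followed partly. Of 24 genes of sucrose and hexose transport and metabolism, 7 rose and 2 fell (9 called, 5 without WT replicate 2): the hexose carrier STP1 rose by 0.60 ± 0.11, the vacuolar carrier SWEET16 by 0.55 ± 0.09 and the class II trehalose phosphate synthase gene TPS11 by 0.47 ± 0.09, and the class I gene TPS1 fell by 0.47 ± 0.06. Of 11 genes of proline and glutamate metabolism, 5 rose and 2 fell, a count of 7 that was 3 without WT replicate 1, WT replicate 2 or bbx202122 replicate 2 and 4 without any of the hy5 replicates. Proline dehydrogenase ERD5 was at 136, 115 and 146 CPM in WT and at 192, 208 and 193 CPM in bbx202122 (0.58 ± 0.07, adjusted p = 9.2e-05), without overlap. Of 18 genes of nitrate and ammonium use (27.8% called) 1 rose, the asparagine synthetase ASN1 (0.89 ± 0.15), and 4 fell, among them the nitrate transporter NRT2.1 (-1.49 ± 0.34) and the cytosolic glutamine synthetase GLN1;1 (-0.31 ± 0.06).

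The antioxidant enzymes showed no common direction: 5 of 27 rose and 7 fell (12 called; 6 without WT replicate 1, 4 without WT replicate 2, and 7 without WT replicate 3, bbx202122 replicate 2 or bbx202122 replicate 3). The catalases moved apart. CAT3 (AT1G20620) was at 1334, 1208 and 1401 CPM in WT and at 1971, 2231 and 2113 CPM in bbx202122, all above WT, and rose by 0.68 ± 0.07 (adjusted p = 1.4e-05), while CAT2 fell as given above. On the deposited FPKM scale, which allows levels of different genes to be compared, CAT3 went from a mean of 701 to 1132 and CAT2 from 421 to 299. The glutathione reductase GR1 fell by 0.52 ± 0.07 and VTC2, the enzyme of the committed step of ascorbate synthesis, by 0.25 ± 0.06; VTC2 was not called without WT replicate 2.

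Genes of root hairs fell as a group. The root and root hair markers EXPA7, EXPA18, COBL9, RHD6 and PRX44 all fell, and PHO1 and SKOR, which are expressed in the root stele, rose. A list of 29 genes of root hair outgrowth, put together after values had been seen and therefore only described, had 23 called lower and 0 higher, with a median log2 fold change of -0.85. Its summed level was 851.8 to 870.5 CPM in WT, 529.9 to 601.6 CPM in bbx202122 and 489.3 to 561.7 CPM in hy5. Of the 29 windows before these genes, 6 held the root hair element (20.7%), 8 held CACGTC (27.6%) and 0 held CACGTG. Because the element was described for genes of root hair cells, its share in this list is no separate result.

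The fall included regulators and effectors. RHD6, a bHLH protein that starts the root hair programme, was at 4.23, 4.54 and 4.85 CPM in WT and at 2.17, 3.20 and 2.76 CPM in bbx202122 (-0.74 ± 0.15, adjusted p = 0.0033). RSL4, which sets the growth of the hair, was at 6.19, 5.23 and 5.61 CPM in WT and at 2.43, 2.52 and 2.08 CPM in the mutant (-1.28 ± 0.14, adjusted p = 2.2e-05). The groups of both genes stood apart. RSL2, of the same family, was at 4.23, 3.99 and 4.71 CPM in WT and at 3.14, 4.41 and 5.31 CPM in the mutant, which overlap (adjusted p = 0.99). Among the effectors, EXPA7, an expansin of root hairs, was at 15.01, 15.8 and 13.9 CPM in WT and at 6.76, 8.64 and 7.65 CPM in bbx202122 (-0.96 ± 0.12, adjusted p = 7.6e-05). PRP3 was at 102, 101 and 113 CPM in WT and at 48.0, 61.2 and 48.8 CPM in the mutant, and the extensin-like LRX1 at 53.1, 53.6 and 61.7 CPM in WT and 32.7, 33.2 and 22.9 CPM in the mutant (-0.92 ± 0.13, adjusted p = 0.00019). None of these overlapped; the windows of EXPA7, PRP3 and LRX1 are printed above. The NADPH oxidase RHD2, the peroxidases PRX44 and PRX73, the xyloglucan enzymes XTH12, XTH13, XTH14 and XTH26, the phosphatidylinositol phosphate kinase PIP5K3 and the proton pump AHA7 fell by 0.80 to 1.81. CSLD3, SCN1, CAP1, TRH1 and LRX2 were not called.

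Most of these genes were lower still in hy5: by the direct test bbx202122 was above hy5 for 18 of the 29 and below it for 3. Of 10 genes of the endodermis, also chosen after the values were seen, 3 rose and 0 fell (CASP5, MYB36 and ESB1, by 0.22 to 0.38), and the summed level was 321.2 to 356.9 CPM in WT and 340.9 to 383.1 CPM in bbx202122. That count of 3 was 0 without WT replicate 1, WT replicate 2 or bbx202122 replicate 3, 1 without bbx202122 replicate 2 and 5 without bbx202122 replicate 1. Of 7 genes of the root cap and root meristem, also chosen after the values were seen, 3 fell and 0 rose. Their median log2 fold change was -0.64, and the summed level of the list was 17.72 to 19.11 CPM in WT and 10.5 to 14.58 CPM in bbx202122. Leaving out libraries gave a count of 0 without WT replicate 1, WT replicate 2 or bbx202122 replicate 3 and 1 without WT replicate 3, bbx202122 replicate 2 or hy5 replicate 2. Of 10 genes that pattern the root epidermis, again chosen after the values were seen, 1 rose (JKD) and 3 fell (WER, MYB23 and SCM). Of these 4 calls, leaving out WT replicate 2 left 1, and leaving out bbx202122 replicate 2 left 2. Whether the mutant had fewer root hair cells was not tested.

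**Figure D4:**
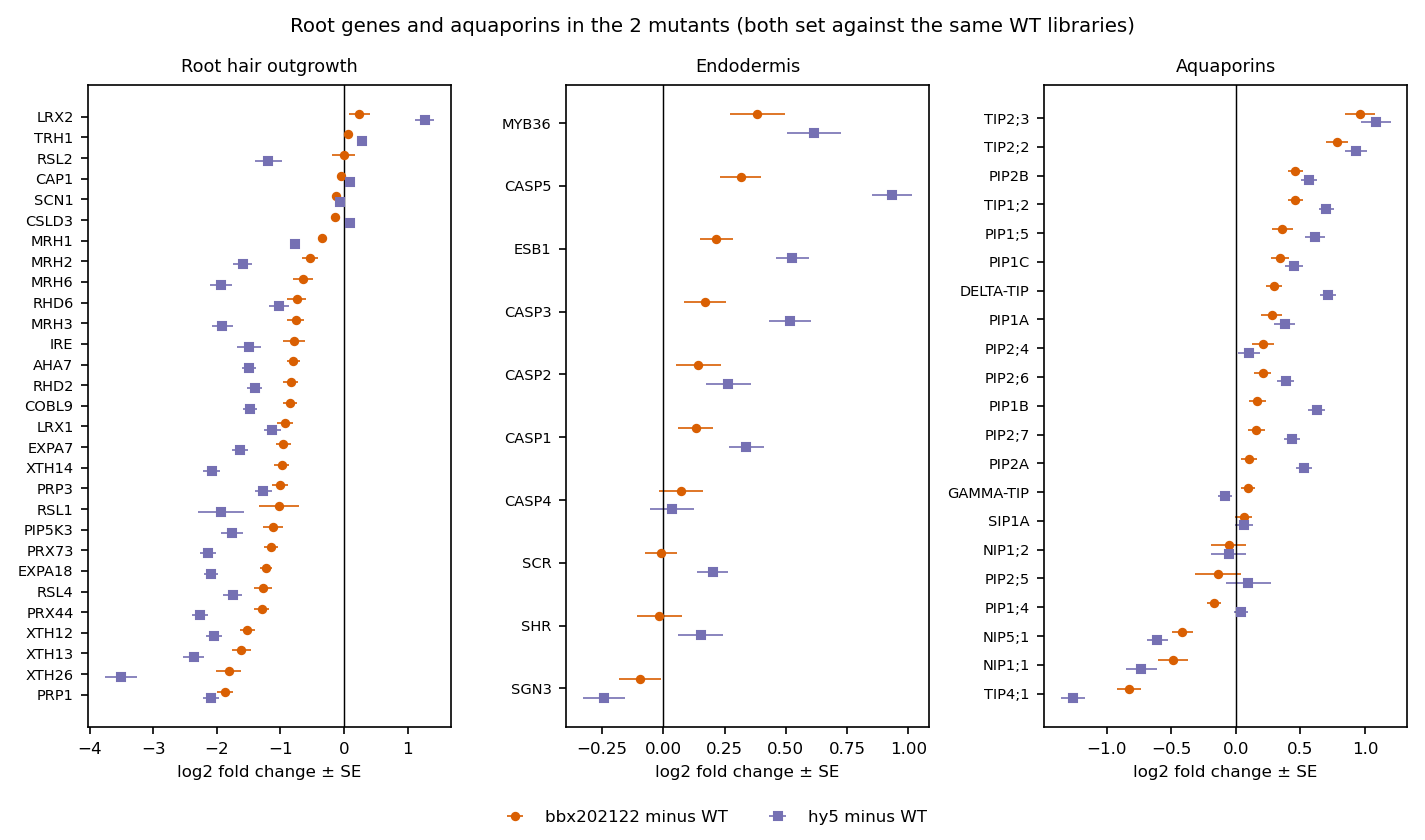
Log2 fold change with its SE (x axes) of each gene of the root hair outgrowth, endodermis and aquaporin lists, for bbx202122 against WT (circles) and hy5 against WT (squares), both set against the same 3 WT libraries. Most root hair genes lie left of 0 in bbx202122 and further left in hy5, endodermis genes lie between -0.09 and 0.38 in bbx202122, and aquaporins fall on both sides of 0.

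Aquaporins, water channels of the plasma membrane (PIP) and vacuole (TIP) among others, rose in 9 of 21 and fell in 4. That is 61.9% called, against 16.9% of all tested genes. TIP1;2, an abundant channel of the vacuolar membrane, was at 1510, 1519 and 1592 CPM in WT and at 2062, 2199 and 2086 CPM in bbx202122 (0.46 ± 0.06, adjusted p = 8.5e-05). TIP2;2 was at 147, 129 and 156 CPM in WT and at 216, 269 and 257 CPM in the mutant (0.78 ± 0.09, adjusted p = 2.5e-05). Neither overlapped. TIP2;3 rose by 0.96 ± 0.12, and PIP2B, PIP1;5, PIP1C, DELTA-TIP, PIP1A and PIP2;6 by 0.21 to 0.46. TIP4;1 was at 25.6, 25 and 24.5 CPM in WT and at 12.4, 14.9 and 14.9 CPM in the mutant, and fell by 0.83 ± 0.09 (adjusted p = 2.3e-05); NIP1;1, NIP5;1 and PIP1;4 fell by 0.49, 0.42 and 0.17. The PIP genes are close relatives whose reads can be shared.

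Among the hormone lists that of ethylene moved most in number. Of 23 genes, 12 rose and 1 fell (56.5% called, against 16.9% of all tested genes), a count of 13 that was 7 without WT replicate 2. The increases covered synthesis (ACS5, ACS6, ACS8, ACS11 and ACO4), receptors (ETR2, ERS1 and ERS2), the F-box protein EBF2 that degrades EIN3, and the growth regulators ARGOS and HLS1. ETR2 was at 10.02, 8.81 and 11.3 CPM in WT and at 13.0, 15.5 and 14.6 CPM in the mutant (0.52 ± 0.10, adjusted p = 0.0017). The groups stood apart, as did those of ACO1, the gene that fell (-0.80 ± 0.16), at 6.77, 5.32 and 4.35 CPM in WT and 2.79, 3.42 and 3.23 CPM in the mutant. EBP, named above among the abundant genes, also answers to ethylene.

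Cytokinin genes were called lower in 5 of 27 and higher in 0, or 18.5% called. Of all tested genes 16.9% were called in either direction and 8.27% lower. The count of 5 was 3 without WT replicate 2, bbx202122 replicate 2 or bbx202122 replicate 3. The response regulators ARR3, ARR4 and ARR7, the receptor WOL and CRF2 fell, ARR3 by 1.02 ± 0.18 and ARR7 by 0.51 ± 0.08; ARR4 was not called without WT replicate 1, WT replicate 2, bbx202122 replicate 2 or bbx202122 replicate 3. In hy5, 19 of the 27 fell and 2 rose against the same WT, and bbx202122 was above hy5 for 18 genes by the direct test. Of 21 genes of auxin transport and growth (19% called) 3 rose, SAUR19, SAUR22 and PIN7, and 1 fell, the root carrier PIN2 (28.0 to 29.6 CPM in WT and 16.5 to 18.5 CPM in bbx202122, log2 fold change -0.70 ± 0.07). PIN7 was not called without WT replicate 2.

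Of 17 genes of salicylic acid and pathogen response 5 rose and 0 fell against WT, or 29.4% called, against 16.9% of all tested genes. The count of 5 was 2 without WT replicate 3 and 3 without bbx202122 replicate 1 or bbx202122 replicate 2. The direct test, which called 23.0% of all genes, put 7 above hy5 and 1 below. WRKY70, a transcription factor of this pathway, was at 4.50, 4.36 and 4.67 CPM in WT, at 7.69, 8.46 and 7.78 CPM in bbx202122 and at 5.30, 5.40 and 4.53 CPM in hy5. The bbx202122 libraries lay above all others, and WRKY70 rose by 0.82 ± 0.11 against WT (adjusted p = 0.00012) and by 0.65 against hy5 (adjusted p = 0.00055). ALD1, which makes the precursor of pipecolic acid, was at 0.980, 0.917 and 0.987 CPM in WT and at 1.55, 2.39 and 2.25 CPM in bbx202122 (1.096 ± 0.23, adjusted p = 0.0039), and FMO1, which acts after it, rose by 0.96 ± 0.26. PCC1 and WRKY54 rose too; PCC1 was not called without WT replicate 3 or bbx202122 replicate 1, and WRKY54 not with DESeq2 or without WT replicate 3 or bbx202122 replicate 2.

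Abscisic acid and jasmonate genes were called about as often as all genes (14.8% and 20.8%). Of 27 abscisic acid genes 2 rose and 2 fell (2 called without WT replicate 1 or bbx202122 replicate 2, 1 without WT replicate 2); ABA1, a zeaxanthin epoxidase of its synthesis, fell by 0.37 ± 0.07 and was below hy5 as well, by 0.40 (adjusted p = 0.00070). Of 24 jasmonate genes 4 rose and 1 fell (3 called without any of the WT replicates or bbx202122 replicate 2), led by ST2A and by AOC2, an allene oxide cyclase (0.57 ± 0.09). Of 15 genes of karrikin and strigolactone signalling 0 were called by edgeR and 0 by DESeq2, with 3 at an unadjusted p under 0.05 (1 called by edgeR without bbx202122 replicate 1). Cold and dehydration genes rose in 4 of 17 and fell in 1, or 29.4% called (3 called without WT replicate 1 or WT replicate 2). RCI2A, a small membrane protein, rose by 0.54 ± 0.07 and RD29A by 0.59 ± 0.13, while KIN1 fell by 1 ± 0.24, a call lost without WT replicate 1.

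Of 18 genes of the iron deficiency response 7 fell and 0 rose, or 38.9% called, against 16.9% of all tested genes. The count of 7 was 3 without WT replicate 2 and 4 without bbx202122 replicate 2. NAS4, a nicotianamine synthase, was at 20.1, 21.4 and 20.7 CPM in WT and at 11.9, 13.7 and 14.1 CPM in bbx202122 (-0.65 ± 0.08, adjusted p = 6.8e-05), without overlap. The bHLH regulators BHLH100 and BHLH38 fell by 0.67 ± 0.15 and 0.54 ± 0.14, and BHLH38 was not called without WT replicate 2 or bbx202122 replicate 2. In hy5, 13 fell, and bbx202122 was above hy5 for 13 and below for 0. Of 17 sulfate genes 1 rose and 6 fell (7 called; 2 without WT replicate 2, 3 without WT replicate 3, 4 without bbx202122 replicate 3), among them the transporter SULTR2;1 (-0.47 ± 0.06) and the reductase APR2 (-0.29 ± 0.05). Of 18 copper and zinc genes 4 rose and 2 fell, or 33.3% called, and the zinc transporter ZIP3 fell by 0.92 ± 0.12. The count of 6 called was 2 without WT replicate 2 and 3 without WT replicate 3 or bbx202122 replicate 3. Of 18 phosphate genes 3 rose and 2 fell (27.8% called); the glycerophosphodiesterase SRG3 rose by 0.35 ± 0.07 and the transporter PHT1;4 fell by 0.51 ± 0.10.

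Genes of lignin monomer synthesis fell in 7 of 16 and rose in 0 (43.8% called, against 16.9% of all tested genes). CAD4, an alcohol dehydrogenase of the last step, was at 188, 199 and 185 CPM in WT and at 120, 122 and 119 CPM in bbx202122 (-0.67 ± 0.05, adjusted p = 1.8e-06). CCoAOMT1, a methyltransferase of the pathway, was at 498, 468 and 467 CPM in WT and at 330, 361 and 386 CPM in the mutant (-0.41 ± 0.06, adjusted p = 0.00035). Neither overlapped, and both were lower still in hy5. Of 7 genes of sinapate esters, which screen ultraviolet light, 1 rose and 2 fell (1 called without WT replicate 2); UGT84A2, a sinapate glucosyltransferase, fell by 0.62 ± 0.08 and was below hy5 by 0.48 (adjusted p = 0.00043).

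Surface lipid genes were higher in 8 of 29 and lower in 1 (31% called, against 16.9% of all tested genes). WSD1, a wax ester synthase, was at 0.0445, 0.138 and 0.0897 CPM in WT, near the level of 3 counts, and at 0.708, 1.40 and 1.27 CPM in bbx202122 (adjusted p = 0.00011). CYP86A4, a cutin hydroxylase, rose by 0.79 ± 0.13, and the regulator MYB30 by 0.33 ± 0.06, while KCS2 fell by 0.38 ± 0.07. Of 23 genes of fatty acids and galactolipids in the plastid 5 fell and 0 rose (21.7% called; 3 called without WT replicate 3, bbx202122 replicate 3 or any of the hy5 replicates), and FAD4, a desaturase of phosphatidylglycerol, fell by 0.66 ± 0.08.

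Of 23 genes of the plastid-encoded polymerase and its partners 3 fell and 0 rose, or 13% called. Of all tested genes 16.9% were called in either direction and 8.27% lower. SIG5, a sigma factor that carries light signals to chloroplast promoters, was at 25.8, 25.6 and 27.8 CPM in WT, at 15.8, 17.38 and 15.8 CPM in bbx202122 and at 26.0, 23.0 and 22.6 CPM in hy5. It fell by 0.70 ± 0.07 (adjusted p = 2.0e-05) and was below hy5 by 0.55 (adjusted p = 0.00012). Of 19 genes of plastid protein import 1 fell, CPHSC70-2 (5.26% called; 2 called without WT replicate 1 or bbx202122 replicate 1). NDA1, an alternative NADH dehydrogenase, was at 42.0, 42.8 and 49.8 CPM in WT and at 24.2, 23.3 and 24.99 CPM in bbx202122 (-0.89 ± 0.08, adjusted p = 3.3e-06), without overlap; of the 10 genes of alternative respiration 1 rose and 2 fell.

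Of 21 targets of shade and phytochrome-interacting factors 6 rose and 2 fell (38.1% called; 5 called without WT replicate 1, WT replicate 2 or any of the bbx202122 replicates): PIL1 rose by 0.90 ± 0.13 and BEE1 by 0.68 ± 0.12, while BBX25, a B-box relative that opposes BBX21 and BBX22 in seedlings, fell by 0.49 ± 0.07. Of 24 genes of phytochromes, cryptochromes and their repressors 2 rose and 3 fell, or 20.8% called, near the 16.9% of all tested genes (3 called without WT replicate 2 or bbx202122 replicate 3). CRY3, a cryptochrome of organelles, was at 22.8, 25.6 and 23.3 CPM in WT and at 13.9, 15.2 and 14.6 CPM in bbx202122 (-0.71 ± 0.07, adjusted p = 1.3e-05), and SPA1, a partner of COP1, fell by 0.27 ± 0.06.

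Of 18 heat shock genes 2 rose and 3 fell (27.8% called; 5 called, 2 without WT replicate 1, 3 without WT replicate 2). Below the 16.9% of all tested genes were the unfolded protein response (2 fell of 15, 13.3%; 4 called without bbx202122 replicate 1), the cell cycle (1 rose, 3 fell of 30, 13.3%; 2 called without WT replicate 2) and the stomatal lineage (1 rose, 1 fell of 20, 10%; 1 called without WT replicate 1 or WT replicate 3, 0 without bbx202122 replicate 1). That 16.9% holds both directions, 8.62% higher and 8.27% lower. The heat shock factor HSFB1 fell by 0.51 ± 0.05 and the chaperones BIP2 and PDIL1-1 by 0.29 ± 0.05 each. Of the markers of other tissues, guard cell markers gave 1 higher (KAT1) and 1 lower (FAMA) of 3, at summed levels of 79.93 to 85.61 CPM in WT and 84.13 to 93.34 CPM in bbx202122. These 2 calls were 1 without WT replicate 1, WT replicate 3 or bbx202122 replicate 2 and 0 without bbx202122 replicate 1. Seed storage markers gave 0 called of 5 by edgeR and 0 by DESeq2, with 2 at an unadjusted p under 0.05 (1 called by edgeR without WT replicate 1 or WT replicate 2, 2 without bbx202122 replicate 3), and CRU3, a storage globulin, was at 0.668 and 0.459 CPM in WT replicates 1 and 2 but at 20.6 CPM in WT replicate 3. The shoot meristem marker STM was at 3.25, 2.98 and 3.19 CPM in WT and at 3.54, 3.78 and 4.72 CPM in bbx202122 and was not called (adjusted p = 0.11). The lists set aside at the outset gave 1 higher and 16 lower of 34 flavonoid genes, 11 higher and 9 lower of 31 clock genes, and 18 higher and 9 lower of 44 cell wall genes.

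**Figure D5:**
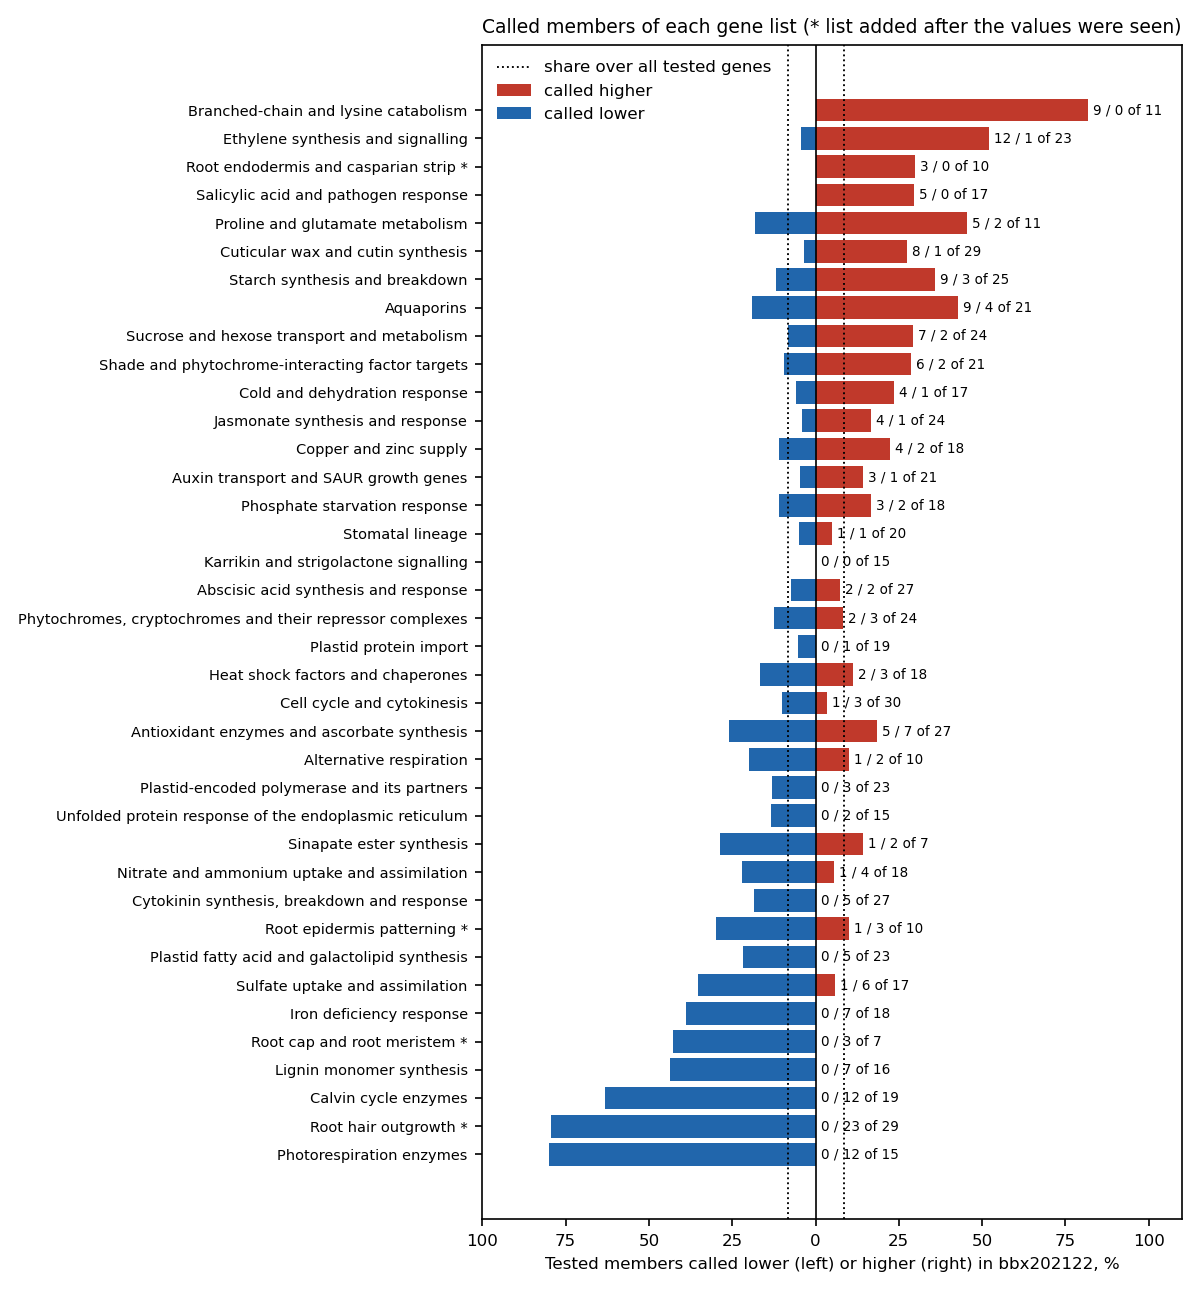
Share of the tested members of each list that were called higher (right, red) or lower (left, blue) in bbx202122, with the counts higher and lower of the tested members beside each bar; dotted lines mark the share over all tested genes (8.62% higher, 8.27% lower), and stars mark lists added after values were seen. Branched-chain and lysine catabolism and ethylene stand at the top, photorespiration, root hair outgrowth and the Calvin cycle at the bottom.

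Finally, 2 genes were at or near 0 in a single genotype of the pair. AT1G64795, an uncharacterized gene on chr1:24082579-24082848, had 273 counts over the WT libraries and 3 over those of bbx202122, a ratio of 0.0107 with a 95% counting interval of 0.00219 to 0.0316. It was also near 0 in hy5 (0.0955, 0.141 and 0.0943 CPM), and it lies within the gene AT1G64790 (ILA) on the opposite strand, so its counts may depend on how reads were assigned. AT4G09250, a SPRY domain gene, had 0 counts in WT and 110 in bbx202122, at least 35.7-fold higher against 3 counts over the group. Most of these counts came from bbx202122 replicate 2 (0, 4.10 and 0.807 CPM), 95.7% of its 50-base words occur in other genes, and the call was lost with DESeq2, after leaving out bbx202122 replicate 2, and after leaving out any WT library.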

How the data were processed

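Poly(A) RNA of 9 libraries (3 per genotype) was sequenced on the BGISEQ-500 platform, per the labels' protocols. Per the submitters' processing notes the tools were HISAT, Bowtie2 2.2.5 and RSEM 1.2.12 with the build TAIR10; these notes state neither their roles nor a HISAT version nor how strand was handled. The deposited files hold RSEM's expected counts and FPKM values per gene, scaled by the authors for length and depth; genes that a file does not list were taken as 0. The series text gives 4 days of red light, the sample protocols 3 days.

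Expected counts were rounded and fitted with edgeR 4.0.16 (TMM scaling, filterByExpr by genotype, 1 mean per genotype over all 9 libraries, quasi-likelihood F test, two-sided, 6 residual degrees of freedom). P-values were adjusted by Benjamini-Hochberg over the 20751 tested genes, and genes under 0.05 are called. Levels are CPM, computed by edgeR on TMM-scaled library sizes, and each SE was taken as the size of the log2 fold change over the square root of its F. On simulated data with 200 changed genes among 20625, 82.5% of 1.5-fold, 91.2% of 2-fold and 100% of 4-fold changes were recovered, and 4.74% of the calls were false. The simulated spread followed the fitted trend with level, without further scatter from gene to gene. In the data 16.9% of tested genes were called, a far larger share than was changed in the simulation. These rates therefore need not hold for the data.

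The 34 gene lists, the 6 marker lists and the tests were chosen with earlier results of these data known, and 4 further lists after the fitted values had been seen; in all they hold 754 genes, 723 of them tested. Genes named first are the mutated genes and HY5, then, without these, the 12 largest changes each way among called nuclear genes of at least 5 CPM whose libraries did not overlap and that are on none of the 3 lists set aside (112 genes), the 5 largest each way at 100 CPM or more, per list up to 4 called members, smallest adjusted p first, and genes with at most 3 counts in a genotype and at least 1 CPM in the other. Further members are named in the text as part of their list. Some members are counted in their lists but not reported here by name. Alternatives were DESeq2 1.42.0, other scalings, no filter, the WT and bbx202122 libraries alone, a replicate block, no organelle transcripts and each library left out. Symbols and coordinates come from the RefSeq annotation of TAIR10.1 (24436 of 24640 genes matched). Counting intervals are exact 95% binomial intervals; intervals and floors cover counting error only.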

Additional observations from a re-analysis of the deposited data

How the results depend on the processing

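The number of called genes was 3504, and 2856 with DESeq2 (2743 shared), 3029 with the WT and bbx202122 libraries alone, 3466 without the filter, 3460 without organelle transcripts, 3523 with library size as the only scaling (1969 higher, 1554 lower) and 3545 with upper-quartile scaling (1543 higher, 2002 lower). Leaving out single libraries gave 2236 to 3482 called genes, 1084 to 1729 of them higher and 1152 to 1778 lower, the lowest values without WT replicate 2. Same-numbered WT and bbx202122 libraries did not deviate together (r of -0.0792, -0.0331 and -0.0623), and unlike numbers gave r of -0.0236 to 0.0978. These values gave no sign that numbers pair the libraries. Taken over all genes, they cannot show a pairing that acts on a few. With the replicate as a block 3143 genes were called, 3063 of them shared. At least 2-fold changes numbered 327 to 429 over all alternatives. Of 219 named genes, 33 were no longer called without WT replicate 2 and 10 with DESeq2. Among the named genes, log2 fold changes turned sign only for 6 uncalled genes: RSL2 (AT4G33880) at 0.0092 and SCR (AT3G54220) at 0.0050 with library size only, and, with single libraries left out, CRU3 (AT4G28520) at -3.90 to 0.57, RSL2 (-0.20 to 0.18, 0.06 without WT replicate 3), CAP1 (AT4G34490) at -0.0856 to 0.0057, TTG1 (AT5G24520) at -0.0065 to 0.14, SCR (-0.0788 to 0.0282; 0.0051 without WT replicate 3, 0.0055 without bbx202122 replicate 1) and SHR (AT4G37650) at -0.0678 to 0.0346, 0.0186 without WT replicate 3. List counts moved by over 1.5 times with DESeq2 for abscisic acid (2 called), salicylic acid (3), plastid import (2) and root cap (1), with the WT and bbx202122 libraries alone for proline (4), cytokinin, jasmonate and fatty acids (3 each) and root cap (1), with library size only for cytokinin (3), with upper-quartile scaling for plastid import (4), under the replicate block for fatty acids (3) and root cap (1), and without the filter for seed storage (1). The causes were not tested. On simulated data 82.5% of 1.5-fold changes were recovered with 3 libraries per genotype, a rate that need not hold for the data. Smaller changes were not simulated.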

Other observations

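Gene families were read from the product names of the annotation, for names shared by at least 15 tested genes. Peroxidases, which act on wall polymers and hydrogen peroxide, had 13 of 52 genes higher and 17 lower, or 57.7% called, against 16.9% of all tested genes. Genes annotated as inhibitors of invertase and pectin methylesterase fall under a pair of product names, with 5 of 23 higher and 6 lower (47.8%) and 5 of 24 higher and 4 lower (37.5%), and the berberine-type oxidases 6 of 17 higher and 1 lower (41.2%). SAUR-like proteins were called higher in 12 of 62 and lower in 6 (29%). RING/U-box proteins, most of them ubiquitin ligases, were called higher in 29 of 208 and lower in 5, or 16.3% called. Of all tested genes 16.9% were called in either direction, 8.62% higher and 8.27% lower. At the other end, histones had 0 of 28 called by edgeR and 0 by DESeq2, with 7 at an unadjusted p under 0.05. Mitochondrial transcription termination factors had 0 of 30 called by edgeR and 1 by DESeq2, with 2 at an unadjusted p under 0.05. The largest group of pentatricopeptide repeat proteins, which process organelle RNA, had 2 of 184 higher and 3 lower (2.72%). These families were singled out after their values were seen.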
